A study of Mus musculus with 15 samples.

Results

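The 6 genes described here encode the pore-forming subunits of 2 families of ion channels that set how thalamic neurons fire in bursts: Cacna1g, Cacna1h and Cacna1i of the T-type calcium channels, and Hcn2, Hcn3 and Hcn4 of the hyperpolarization-activated, cyclic nucleotide-gated (HCN) channels. They were chosen by name, with earlier results of these data known, from the 25080 genes listed for the mouse thalamus. All 6 had at least 1 TPM (an abundance per transcript length that sums to a fixed total in each library) in all 14 libraries analysed. Total RNA depleted of ribosomal RNA was sequenced with a stranded kit from the unsorted thalamus of mice 2 to 4 months old. All mice received saline injections for 3 days, and then either cocaine at 20 mg/kg intraperitoneally or saline for 5 days. Control mice, titled Maged1 WT, were compared with Maged1 cKO mice, in which Cre recombinase driven by the vGluT2 promoter deletes a floxed Maged1 in neurons that use this glutamate transporter and not in other cells. By label there were 4 libraries each of control mice with saline, control mice with cocaine and cKO mice with saline, and 2 of cKO mice with cocaine. The mice were males on a C57Bl6J background.

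T-type calcium channels open when a hyperpolarized neuron is released from inhibition, and the calcium current they carry lifts a short burst of sodium spikes. HCN channels open on hyperpolarization, carry a depolarizing cation current and are tuned by cyclic nucleotides, which moves a thalamic neuron between tonic firing and rhythmic bursting. Cacna1g is the T-type gene that relay neurons rely on, whereas Cacna1h and Cacna1i are known from the inhibitory neurons of the reticular nucleus. Hcn2 carries most of the current of relay neurons, Hcn4 responds strongly to cyclic AMP, and Hcn3 is little affected by it.

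The labels need care before any comparison. Maged1, the targeted gene, had 163.5 to 188.6 TPM as deposited in the control saline libraries and 69.2 to 89.4 TPM in the cKO saline libraries. In the libraries labelled control cocaine it had 49.7 to 76.7 TPM, and in those labelled cKO cocaine it had 140.4 and 144.3 TPM, the reverse of what their labels say. The genotype tag also names the other genotype than the title in 4 saline libraries (control saline replicates 3 and 4, cKO saline replicates 1 and 2), whose Maged1 level goes with the title. Groups follow the titles throughout, and every direction between genotypes, or for cocaine within a genotype, rests on those labels. A comparison of all 6 cocaine libraries with all 8 saline libraries uses the treatment label alone. As the values were scaled by trimmed-mean (TMM) factors, cocaine libraries had factors of 0.807 to 0.947 and saline libraries of 1.07 to 1.21, so that the size of any cocaine effect depends on the scaling. The 10 relay neuron markers were present in every group, with summed scaled levels of 488.9 to 753.9 TPM. Markers of tissue that borders the thalamus were present too and varied: choroid plexus markers summed to 1445 TPM in control saline replicate 1 and to between 2.67 and 54.8 TPM in the other libraries. Control cocaine replicate 1 had the lowest sum of the 8 markers of reticular and other GABAergic neurons, 38.4 TPM against 96.0 to 332.7 in the others, and the highest sum of habenula markers, 157.4 TPM. Hypothalamus markers summed to 128.6 to 454.8 TPM in control saline and to 1.49 to 125.5 TPM in control cocaine, without overlap, and to 7.20 to 143.3 TPM in the other libraries.

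The 6 genes lie on 6 chromosomes of GRCm38 (GENCODE M21), all as protein-coding genes. Cacna1g (ENSMUSG00000020866.17) is at chr11:94408391-94474198 on the minus strand, Cacna1h (ENSMUSG00000024112.16) at chr17:25374285-25433783 on the minus strand, and Cacna1i (ENSMUSG00000022416.15) at chr15:80287238-80398279 on the plus strand. Hcn2 (ENSMUSG00000020331.9) is at chr10:79716634-79736108 on the plus strand, Hcn3 (ENSMUSG00000028051.10) at chr3:89146074-89160196 on the minus strand, and Hcn4 (ENSMUSG00000032338.9) at chr9:58823412-58863175 on the plus strand. Exons of Cacna1h share 158 bases with Tpsg1 and exons of Hcn3 share 711 bases with Pklr, both on the opposite strand, and those genes had medians of 0.0492 and 0.0425 TPM. A promoter sequence (RefSeq, GRCm38.p6, 250 bases before to 50 after the gene start) was at hand for 3 of the 6. They were Hcn2 and Hcn4, which passed the test below between control cocaine and control saline, and Cacna1i, which did not. For Hcn4 the RefSeq window follows a start upstream of the GENCODE start given above. Capitals mark the GC box GGGCGG on either strand, the letters that the factor Sp1 is known to bind.
Hcn2, chr10:79716384-79716683, plus strand: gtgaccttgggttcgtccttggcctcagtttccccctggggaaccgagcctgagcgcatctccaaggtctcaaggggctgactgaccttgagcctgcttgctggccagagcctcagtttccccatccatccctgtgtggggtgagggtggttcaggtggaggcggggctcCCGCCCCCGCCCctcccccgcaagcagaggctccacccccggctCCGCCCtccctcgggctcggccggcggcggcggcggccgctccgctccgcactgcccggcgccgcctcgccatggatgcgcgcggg
Hcn4, chr9:58822699-58822998, plus strand: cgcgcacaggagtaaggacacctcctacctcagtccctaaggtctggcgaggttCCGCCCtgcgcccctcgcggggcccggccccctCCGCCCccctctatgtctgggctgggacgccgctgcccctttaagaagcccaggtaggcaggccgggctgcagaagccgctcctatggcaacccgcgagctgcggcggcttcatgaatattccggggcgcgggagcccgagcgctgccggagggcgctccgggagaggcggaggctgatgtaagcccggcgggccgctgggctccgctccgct
Cacna1i, chr15:80286988-80287287, plus strand: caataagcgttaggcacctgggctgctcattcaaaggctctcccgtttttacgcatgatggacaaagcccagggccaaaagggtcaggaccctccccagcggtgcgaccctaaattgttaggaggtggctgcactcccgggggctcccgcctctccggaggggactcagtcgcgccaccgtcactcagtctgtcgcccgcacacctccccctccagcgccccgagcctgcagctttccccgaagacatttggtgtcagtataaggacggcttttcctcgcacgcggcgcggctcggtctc

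All 3 windows were rich in CpG, with 26 in Hcn2, 31 in Hcn4 and 23 in Cacna1i, against a median of 7 over 32851 promoters of the same length. Fewer CpG were held by 83.1%, 89.4% and 78.5% of those promoters, so such counts are not rare. The GC box occurred 3 times in Hcn2, 2 times in Hcn4 and 0 times in Cacna1i, and 35.66% of all promoters hold at least 1. None of the 3 windows held the cyclic AMP response element TGACGTCA, the E-box CACGTG or the letters TATAAA, searched on both strands, which 1.79%, 7.15% and 13.62% of all promoters hold. These matches describe letters in the windows, not binding.

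Levels are compared between genes on the scaled TPM, which is per transcript length. In the control saline libraries Hcn2 was the highest of the 6, with a mean of 58.8 ± 3.78 TPM (SD, n = 4), above 94.86% of the 13471 tested genes. Cacna1g followed with 35.7 ± 3.38 TPM, above 90.3% of genes, and Hcn4 with 10.6 ± 1.21 TPM, above 63.36%. Cacna1i (6.84 ± 0.958 TPM) and Hcn3 (5.94 ± 0.846 TPM) lay near the middle of the tested genes, and Cacna1h (2.70 ± 0.464 TPM) lay above 21.52% of them. The order from Hcn2 to Cacna1g to Hcn4 held in 14 of 14 libraries, with Hcn2 1.45 to 2.18 times Cacna1g and Cacna1g 2.44 to 3.50 times Hcn4. Cacna1i and Hcn3 were neighbours whose values overlapped in control saline, and Cacna1i was the higher in 13 of 14 libraries.

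Within each library, Cacna1g made up most of the T-type transcripts. It held 72.5% to 85.6% of the summed TPM of the 3 T-type genes (median 78.9% over 14 libraries), Cacna1i held 10.9% to 19.1% and Cacna1h 3.55% to 12.9%. Hcn2 likewise held 72.6% to 82.8% of the summed TPM of Hcn2, Hcn3 and Hcn4 (median 79.9%), Hcn4 held 11.8% to 20.5% and Hcn3 4.73% to 9.45%. These shares do not depend on the scaling between libraries. The extremes came from single libraries: the highest Cacna1h share was that of cKO saline replicate 4, and the highest Hcn4 share and lowest Hcn2 share were both those of control cocaine replicate 1.

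**Figure D1:**
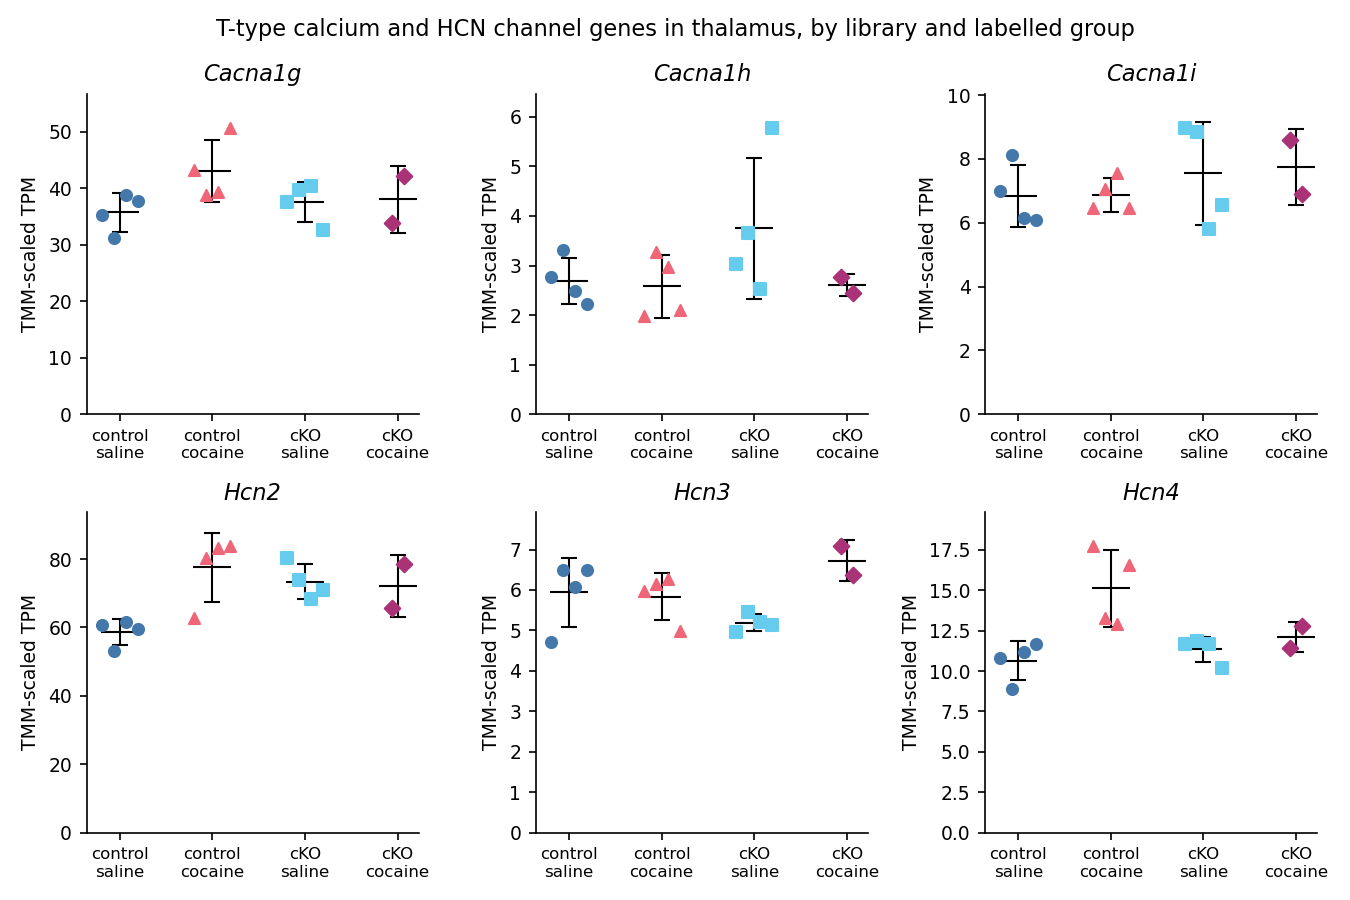
TMM-scaled TPM of the 6 genes (y axes, each from 0) in every library, grouped by label on the x axis. Points are libraries, bars are the mean ± SD (n = 4, with n = 2 for cKO cocaine). The 4 libraries labelled control cocaine lie above all 4 control saline libraries for Hcn2, Hcn4 and Cacna1g, while Cacna1h, Cacna1i and Hcn3 overlap between these groups.

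The first comparison asks, by the labels, whether repeated cocaine changed these channels in control mice, although Maged1 was lower in its cocaine libraries (log2 fold change -1.08, adjusted p = 5.91e-05, limma). Treatment and Maged1 level thus changed together between these libraries, and their parts in any difference cannot be told apart here. Hcn2 and Hcn4 were higher with cocaine than with saline among the libraries labelled control, and the other 4 did not pass the test. Hcn2 had 62.7, 80.4, 83.3 and 83.7 scaled TPM in the cocaine libraries and 60.8, 53.2, 61.5 and 59.7 in the saline libraries. The lowest cocaine library, replicate 1, lay just above the highest saline library, and the other 3 were well separated. This was 0.39 higher on the log2 scale (standard error 0.093, adjusted p = 0.00941, limma with Benjamini-Hochberg adjustment over all tested genes). Hcn4 had 17.7, 13.2, 12.9 and 16.6 scaled TPM with cocaine and 10.8, 8.91, 11.2 and 11.7 with saline, again without overlap. It differed by 0.48 on the log2 scale (standard error 0.106, adjusted p = 0.00631, limma). Hcn2 was lowest and Hcn4 highest in the same cocaine library, replicate 1.

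Over all 13471 tested genes 24.3% passed in this comparison, 2015 as higher with cocaine and 1260 as lower, a share too close to 2 of 6 for any statement about the 6 genes as a set. With a minimum absolute log2 fold change of 0.5, which 3.10% of genes met with the same adjusted p, 0 of 6 members passed. Both calls held when each of the 14 libraries was left out in turn, with log2 fold changes of 0.34 to 0.49 for Hcn2 and 0.40 to 0.55 for Hcn4. They did not hold on the TPM as deposited, where the log2 fold change was 0.01 for Hcn2 (adjusted p = 0.923, limma) and 0.11 for Hcn4 (adjusted p = 0.378, limma), and where the median of all tested genes was -0.335, below both genes. A scaling to the relay neuron markers, chosen after seeing the data, gave 0.15 for Hcn2 (adjusted p = 0.469, limma) and 0.25 for Hcn4 (adjusted p = 0.0788, limma). Under it the median of all tested genes was -0.212, again below both genes. With groups taken from the genotype tag, Hcn4 still passed and Hcn2 did not (0.22, adjusted p = 0.271, limma), nor did Hcn2 with the 10 libraries whose title and tag agree (0.44, adjusted p = 0.0608, limma). In the same comparison 3 of 5 tested hypothalamus markers passed as lower with cocaine, the neuropeptide genes Oxt (-7.89), Avp (-5.07) and Trh (-1.72, all log2), and their part in the Hcn2 and Hcn4 differences was not tested.

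**Figure D2:**
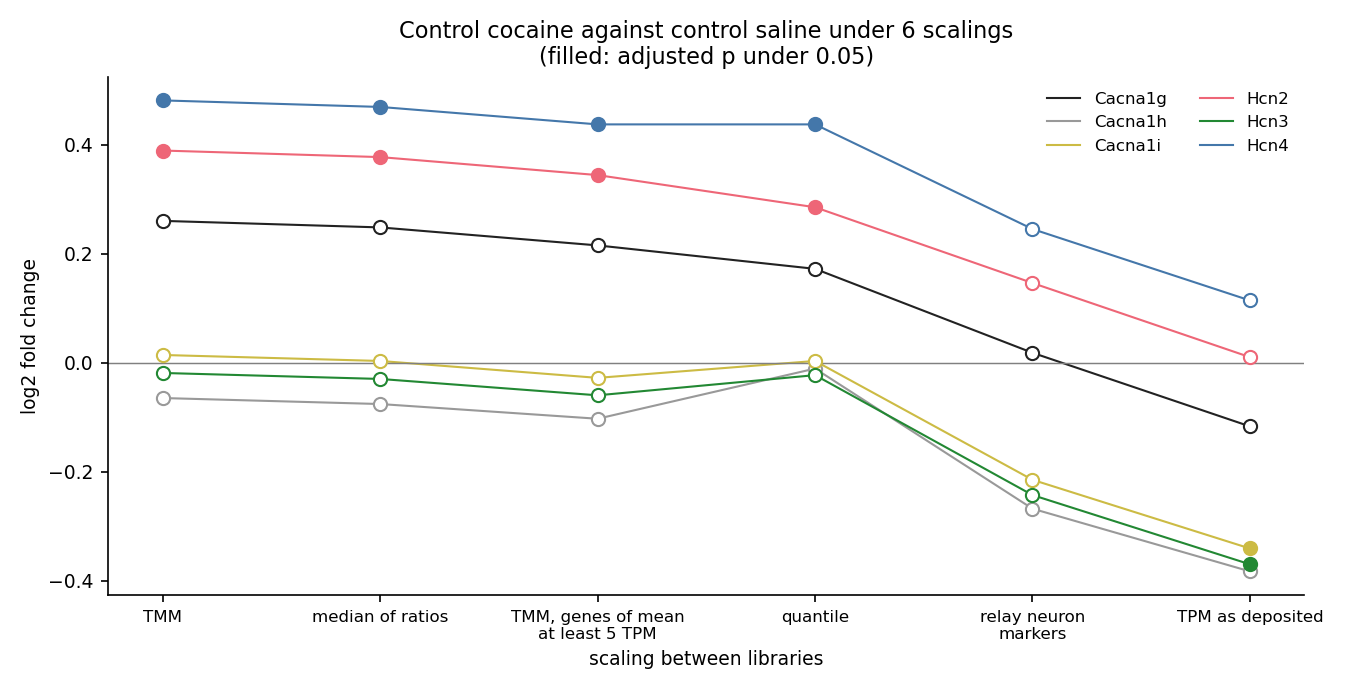
log2 fold change of each gene between control cocaine and control saline (y axis) under 6 ways of scaling the libraries (x axis); filled points passed at an adjusted p under 0.05 (limma). Hcn4 and Hcn2 are the top lines under all 6, from 0.48 and 0.39 with TMM to 0.11 and 0.01 on the TPM as deposited.

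Cacna1g, the main T-type gene of the tissue, had 43.2, 38.8, 39.3 and 50.7 scaled TPM in the cocaine libraries of this comparison and 35.2, 31.2, 38.8 and 37.7 in its saline libraries. The groups did not overlap, but by the narrowest margin, with the lowest cocaine library and the highest saline library both at 38.8. The log2 fold change of 0.26 (standard error 0.103, 95% interval 0.04 to 0.48) did not pass (adjusted p = 0.0855, limma). Every cocaine library lay above every saline library for 3 of 6 members, Hcn2, Hcn4 and Cacna1g, which 14.9% of all tested genes also did. Groups failed to overlap in either direction for 25.1% of them. In each of the 3 the exact two-sided permutation test gave p = 0.0286, the smallest that 4 libraries against 4 allow.

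The 3 genes with lower levels gave values near 0 in this comparison. The log2 fold changes were -0.07 for Cacna1h (95% interval -0.51 to 0.38), 0.01 for Cacna1i (-0.28 to 0.30) and -0.02 for Hcn3 (-0.22 to 0.18). On the TPM as deposited, Cacna1i (-0.34, adjusted p = 0.0465) and Hcn3 (-0.37, adjusted p = 0.00982) passed as lower with limma. The count of 2 members without scaling therefore names other genes than under TMM, and 9627 of all 13471 tested genes passed there.

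The second comparison asks the same among the libraries labelled cKO, with 2 cocaine libraries, in which Maged1 was higher than with saline (log2 fold change 1.18, adjusted p = 0.000242, limma). Here too treatment and Maged1 level changed together and cannot be told apart. None of the 6 genes passed with limma, where 19.9% of all tested genes did. An unadjusted p under 0.05 was found for 1 of the 6 and for 4545 of all 13471 tested genes. Over all genes 2679 passed, but 748 without cKO cocaine replicate 2. Hcn3 came nearest, with 7.08 and 6.38 scaled TPM in the libraries labelled cKO cocaine and 4.97, 5.46, 5.22 and 5.13 in cKO saline. The groups did not overlap, as 43.3% of all tested genes did not with libraries so few, and 2 libraries against 4 cannot give an exact p below 0.133. Hcn3 was 0.34 higher on the log2 scale (standard error 0.115, adjusted p = 0.052, limma). It passed with quantile normalisation (adjusted p = 0.0479), with a filter at a mean of 5 TPM (0.0451) and in a fit of these 2 groups alone (0.0244, all limma). It also passed without control cocaine replicate 4 (adjusted p = 0.0349, limma) or without control saline replicate 1 (adjusted p = 0.015, limma), libraries outside the comparison that enter the estimate of spread. On the TPM as deposited it was -0.01, where the median of all tested genes was -0.346. Hcn2 had 65.7 and 78.5 scaled TPM with cocaine and 80.2, 74.0, 68.4 and 71.1 with saline, which overlapped, and its log2 fold change was -0.03 (95% interval -0.27 to 0.22). Hcn4 had 11.4 and 12.8 against 11.7, 11.9, 11.7 and 10.2, a log2 fold change of 0.09 (-0.19 to 0.37). Cacna1g was at 0.01 (-0.26 to 0.29), Cacna1i at 0.05 (-0.31 to 0.41) and Cacna1h at -0.39 (-0.94 to 0.15).

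Whether cocaine acted differently in the 2 labelled genotypes is the question of the interaction, and the answer rests on the labels. With the cocaine libraries exchanged between genotypes, as Maged1 runs, this contrast would compare the genotypes over both treatments instead. Of all tested genes 1.35% passed the interaction and none of the 6 members did (limma), 3 having an unadjusted p under 0.05. Such a p was found for 2488 of the 13471 tested genes. The interaction was -0.42 for Hcn2 (standard error 0.146, adjusted p = 0.146, limma), -0.39 for Hcn4 (standard error 0.167, adjusted p = 0.233, limma) and 0.36 for Hcn3 (standard error 0.148, adjusted p = 0.214, limma). A difference of the cocaine effect between genotypes is thus not shown for any member, although Hcn2 and Hcn4 passed in one and not in the other. Without control cocaine replicate 1, the library with the low Hcn2, the interaction of Hcn2 was -0.52 and passed (adjusted p = 0.0369, limma). With groups from the genotype tag it was -0.07 (adjusted p = 0.958, limma). The 182 genes that passed over all genes became 1 with the tag, and 28 to 406 with single libraries left out (28 without cKO cocaine replicate 1, 406 without control cocaine replicate 1).

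The genotype comparisons used the same groups the other way round. Between cKO saline and control saline 0.156% of genes passed and none of the 6 did (limma), 1 having an unadjusted p under 0.05. Such a p was found for 2255 of the 13471 tested genes. Hcn2 had 68.4 to 80.2 scaled TPM in the 4 cKO saline libraries, all above the 53.2 to 61.5 of the 4 control saline libraries, a separation that 12.8% of all tested genes showed in one direction or the other. The difference was 0.32 on the log2 scale (standard error 0.093, adjusted p = 0.128, limma; exact two-sided permutation p = 0.0286, the smallest possible). With groups from the genotype tag, which differs from the title in 4 of these 8 libraries, it was -0.03 (adjusted p = 1, limma). The 4 control saline libraries were thus the lowest of all 14 for Hcn2, and they serve as the reference of both this comparison and the cocaine comparison in controls. Cacna1h was 0.37 (95% interval -0.08 to 0.81), with 1 library, cKO saline replicate 4, at 5.78 scaled TPM where the other 13 had 1.98 to 3.66. Hcn3 was -0.17 (-0.37 to 0.03), Cacna1i 0.12 (-0.17 to 0.41), Hcn4 0.09 (-0.14 to 0.32) and Cacna1g 0.07 (-0.15 to 0.30).

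Between the libraries labelled cKO cocaine and control cocaine 0.0594% of genes passed and none of the 6 did (limma), again with 1 at an unadjusted p under 0.05. Of all 13471 tested genes 1635 had such a p. Hcn4 was lower in both cKO cocaine libraries than in all 4 control cocaine libraries, with a log2 fold change of -0.30 (95% interval -0.58 to -0.02, adjusted p = 0.387, limma). Hcn3 was higher in both, by 0.19 (-0.06 to 0.44). Values did not overlap between these groups for 2 of 6 members and for 17.6% of all tested genes.

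With the genotype left out, Hcn4 was the 1 member that differed between all 6 cocaine and all 8 saline libraries, where 31.2% of genes passed and 17.0% passed as higher. Hcn4 ranged from 11.4 to 17.7 scaled TPM with cocaine (median 13.1) and from 8.91 to 11.9 with saline (median 11.4). The ranges overlapped by a single cocaine library, as 5 of 6 cocaine libraries lay above all 8 saline libraries. The log2 difference came to 0.34 (standard error 0.092, adjusted p = 0.0122, limma; exact two-sided permutation p = 0.00333). The same log2 difference was -0.04 when no scaling was applied (adjusted p = 0.707, limma) and, with the relay marker scaling, 0.10 (adjusted p = 0.311, limma). The medians of all tested genes were -0.341 and -0.209 there, both below Hcn4. Hcn2 had a log2 fold change of 0.20 (adjusted p = 0.124, limma), Cacna1g of 0.17 (adjusted p = 0.133, limma) and Cacna1h of -0.24 (adjusted p = 0.298, limma). Hcn3, at 0.13, and Cacna1i, at 0.01, did not pass either. Without the library cKO cocaine replicate 1, Cacna1g passed as well (0.22, adjusted p = 0.0376, limma).

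**Figure D3:**
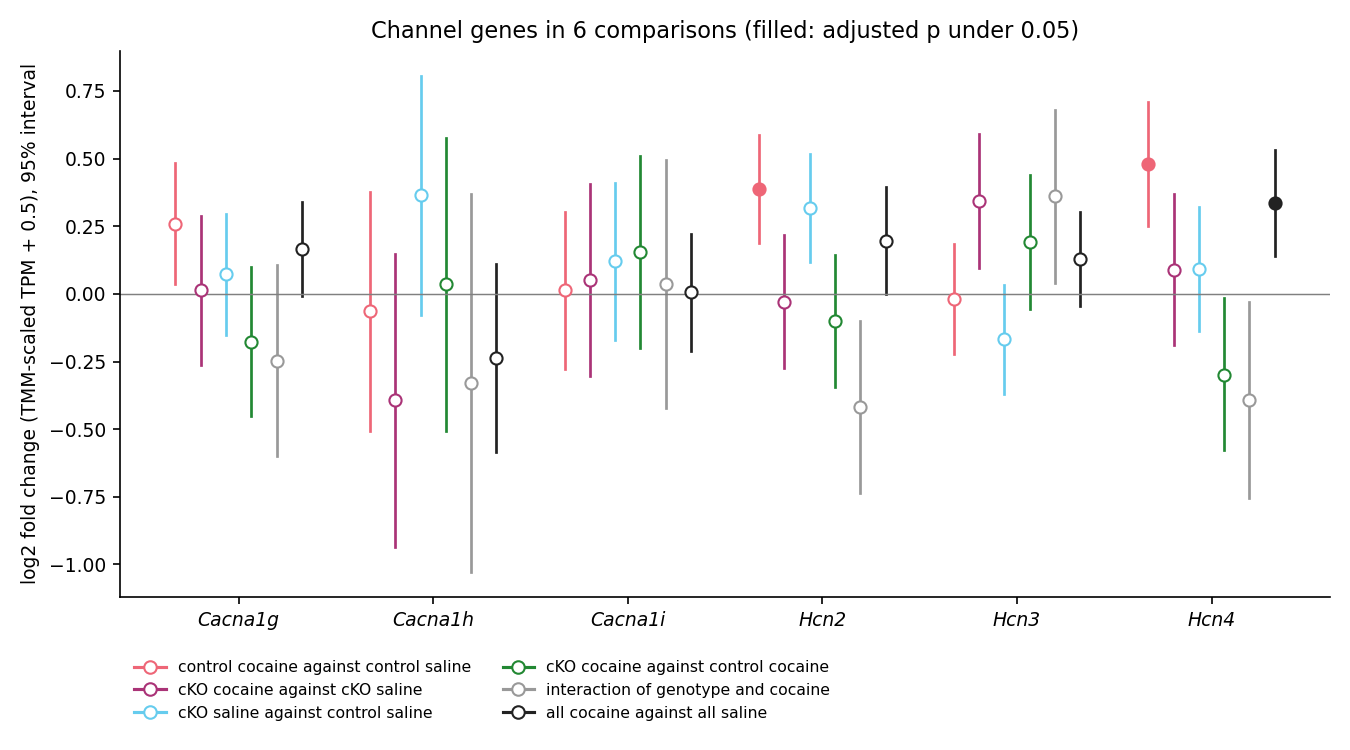
log2 fold change with its 95% interval (y axis, TMM-scaled TPM plus 0.5) of the 6 genes (x axis) in 6 comparisons, marked by colour; filled points passed at an adjusted p under 0.05 (limma). The 3 filled points are Hcn2 (0.39) and Hcn4 (0.48) between control cocaine and control saline, and Hcn4 (0.34) between all cocaine and all saline libraries.

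Ratios within a library are free of the scaling and are given as a description. Cacna1g was 3.20 to 3.50 times Hcn4 in the 8 saline libraries and 2.44 to 3.06 times in the 4 libraries labelled control cocaine, so these ranges did not overlap. In the 2 libraries labelled cKO cocaine the ratio was 2.96 and 3.30, and the 6 cocaine libraries together (2.44 to 3.30) overlapped the saline range. How many other gene pairs separate in this way was not computed. Against Slc17a6, the gene of the vesicular glutamate transporter of relay neurons, Hcn4 stood at 0.176 to 0.204 in control cocaine, 0.108 to 0.154 in the 8 saline libraries, and 0.136 and 0.141 in cKO cocaine. Against Tcf7l2, a transcription factor that marks thalamic neurons, the same ratio was 0.132 to 0.159 in control cocaine and 0.116 to 0.158 with saline, which overlapped. The separation of Hcn4 therefore depends on which relay gene it is set against. Hcn2 to Hcn4 was 3.54 to 6.45 in control cocaine and 5.10 to 6.98 with saline.

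The thalamus was not sorted into cells, and fewer cells of a type and less RNA per cell cannot be told apart in such samples. Each member was therefore set against the summed scaled level of 12 lists of cell type and region markers over the 14 libraries, 72 relations in all, with two-sided p-values from 100000 permutations, adjusted over the 72 within each measure. Libraries were permuted without regard to the 4 groups, so these p-values count differences between groups as well as covariation within them. Values share the scaling factor of their library, and the lists were compared after the member levels were known. The members went with different lists, and 6 of the 72 relations passed by Pearson's r, 4 by Spearman's rho and 3 by both. Cacna1g followed the relay neuron markers (Pearson's r = 0.881, permutation p = 8e-05, adjusted p = 0.0054; Spearman's rho = 0.793, permutation p = 0.00116, adjusted p = 0.0209), and r was 0.806 without the 2 libraries farthest from the median of the markers. Hcn4 followed them as well (r = 0.813, permutation p = 0.00037, adjusted p = 0.00888; rho = 0.662, permutation p = 0.0122, adjusted p = 0.0936; r without 2 libraries 0.655). Cacna1h went the other way, being lowest where relay markers were highest (r = -0.775, permutation p = 0.00051, adjusted p = 0.00918; rho = -0.903, permutation p = 3e-05, adjusted p = 0.00216; r without 2 libraries -0.69). Cacna1g also ran against the astrocyte markers (r = -0.764, permutation p = 0.00123, adjusted p = 0.0177; rho = -0.657, permutation p = 0.0122, adjusted p = 0.0936; r without 2 libraries -0.669). After the group means were subtracted, r with the relay markers was 0.89 for Cacna1g, 0.852 for Hcn4 and -0.881 for Cacna1h.

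Hcn2 did not share this pattern with Cacna1g and Hcn4 (r = 0.33 with the relay markers, permutation p = 0.247, adjusted p = 0.523; rho = 0.244, permutation p = 0.4, adjusted p = 0.627). It followed the 5 oligodendrocyte markers instead (r = 0.865, permutation p = 0.00015, adjusted p = 0.0054; rho = 0.864, permutation p = 0.00013, adjusted p = 0.00468), with r = 0.905 without the 2 farthest libraries and 0.715 after subtracting group means. After that subtraction r was 0.741 with the markers of reticular and other GABAergic neurons, above the oligodendrocyte value, and -0.685 with the habenula markers. Over all libraries neither of these lists passed for Hcn2 (r = 0.431, permutation adjusted p = 0.373, and r = -0.594, permutation adjusted p = 0.154). The relation of Hcn2 to the microglia markers passed by r alone (r = 0.739, permutation p = 0.00351, adjusted p = 0.0421; rho = 0.736, permutation p = 0.00398, adjusted p = 0.0573; r without 2 libraries 0.724). The control saline libraries, the lowest for Hcn2, had oligodendrocyte marker sums of 1296 to 1548 scaled TPM. The control cocaine libraries had 1447 to 2271, the lowest being replicate 1, also the lowest of its group for Hcn2. The range was 1606 to 2275 for cKO saline, with 1746 and 1765 for cKO cocaine. Between control cocaine and control saline, Mbp (log2 fold change 0.46) and Mobp (0.61), both genes of the myelin sheath, passed as higher and 3 of 5 oligodendrocyte markers did not pass. The part of these markers in the Hcn2 difference was not tested.

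Of the 10 relay markers, 4 passed as higher in that comparison (Lef1, Tnnt1, Plekhg1 and Prkcd), 1 as lower (Calb2) and 5 did not pass, with a median log2 fold change of 0.27. Their sums were 573.4 to 753.9 scaled TPM in control cocaine and 488.9 to 629.2 in control saline, and their part in the Hcn4 difference was not tested either. Cacna1i followed the markers of reticular and other GABAergic neurons by rank (rho = 0.837, permutation p = 0.00034, adjusted p = 0.00816), whereas its r of 0.646 did not pass (permutation p = 0.00873, adjusted p = 0.0698) and was 0.801 without the 2 farthest libraries. Hcn3 passed with none of the 12 lists, its largest r being 0.613 with the ependymal markers (permutation p = 0.0166, adjusted p = 0.119; rho = 0.521, permutation p = 0.0576, adjusted p = 0.235).

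**Figure D4:**
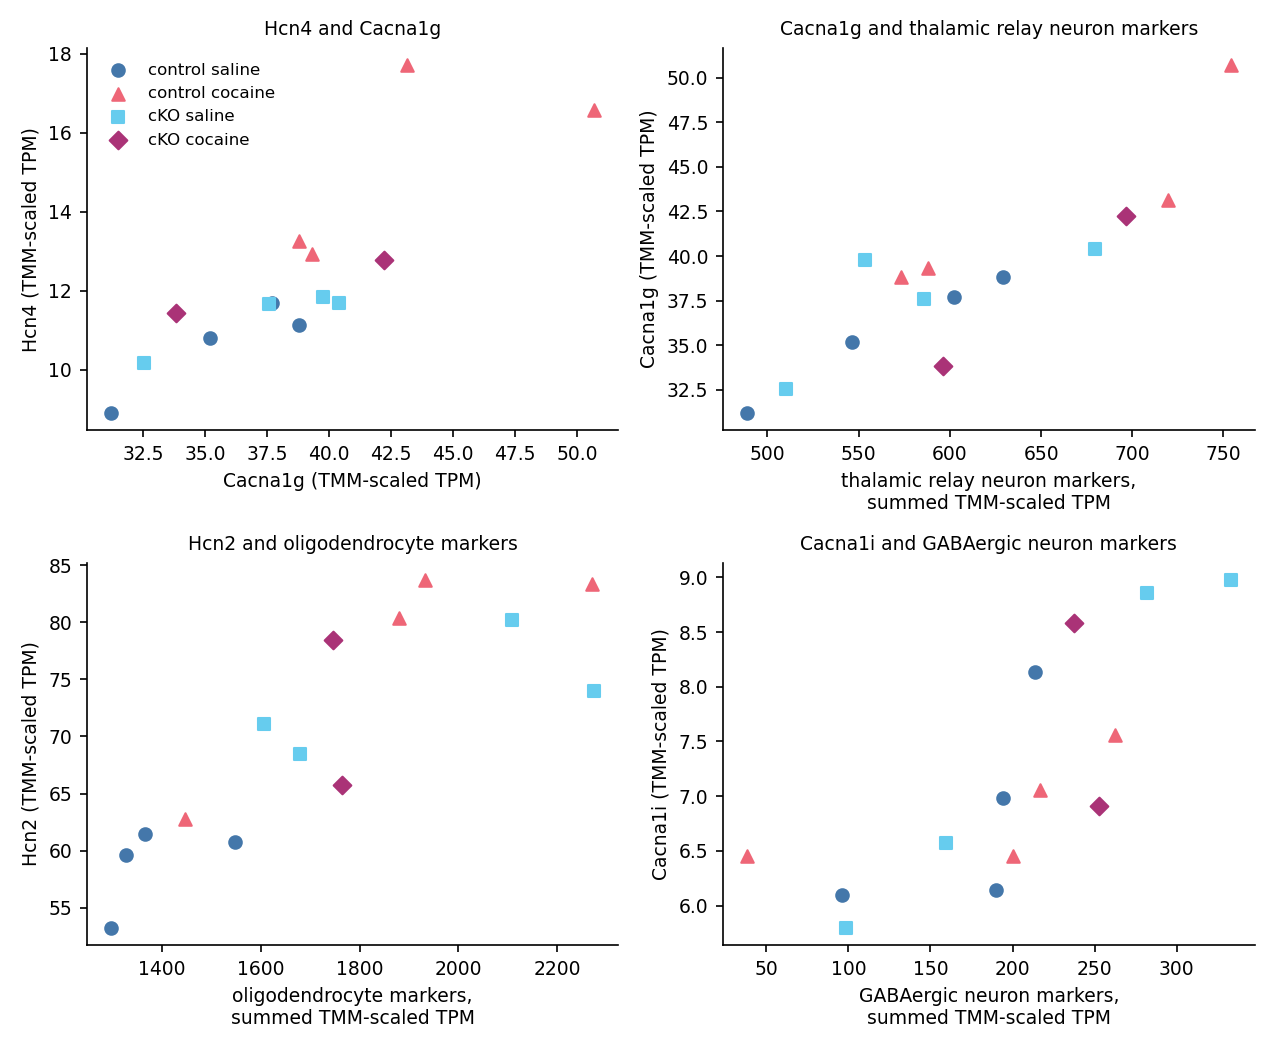
Each panel sets 1 gene (y axis) against another gene or the summed level of a marker list (x axis), all in TMM-scaled TPM; points are the 14 libraries, with colour and shape giving the labelled group. Hcn4 rises with Cacna1g, Cacna1g with the relay neuron markers, and Hcn2 with the oligodendrocyte markers, with control saline at the low end of the Hcn2 panel, while for Cacna1i control cocaine replicate 1 lies far to the left at 38.4 on the GABAergic markers.

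Among the members themselves, Cacna1g and Hcn4 were the most alike (r = 0.863 over 14 libraries, 0.811 after subtracting group means), and Hcn4 and Cacna1h were the most opposed within groups (r = -0.799). Hcn2 and Hcn4, the members that passed together, had r = 0.468 over all libraries and -0.067 within groups. The genes most like each member were found over all tested genes by Pearson's r of the log2 values in the 14 libraries. For Cacna1g they were Zdhhc22 (0.951), Eif4e2 (0.942) and Inpp5a (0.928), and for Hcn4 they were Shisal1 (0.952), D630045J12Rik (0.944) and Kcnip3 (0.937), the last encoding a protein that binds potassium channels. For Hcn2 they were Tmem189 (0.972), Fhdc1 (0.964) and Lynx1 (0.954), for Cacna1h Sh3bp5 (0.935), Cdh9 (0.928) and Fat4 (0.924), the latter pair encoding cadherins. Cacna1i (Lgi2, 0.851) and Hcn3 (Cacng3, 0.838) had no neighbour as close. After group means were subtracted the nearest were Gfod2 for Cacna1g (0.969), Cdh9 for Cacna1h (0.967), Sulf2 for Cacna1i (0.86), Nacc2 for Hcn2 (0.975), Mir669j for Hcn3 (0.931) and D630045J12Rik for Hcn4 (0.972).

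The wider set of genes that shape bursting held 38 listed genes, of which 34 passed the filter on low values. Between control cocaine and control saline, 7 of the 34 passed as higher and 0 as lower, against the 24.3% of all tested genes that passed in either direction. The median log2 fold change was 0.10 against 0.01 for all tested genes. Kcnn1, a gene of the small-conductance, calcium-activated potassium channels, went from 2.90 to 3.31 scaled TPM with saline to 4.30 to 4.97 with cocaine (log2 fold change 0.47, adjusted p = 0.000276, limma). Its relatives Kcnn2, known from the end of thalamic bursts (-0.03), and Kcnn3 (0.14) did not pass. Atp2a2, which pumps calcium into the endoplasmic reticulum, was higher by 0.29 (adjusted p = 0.0223, limma). Of the 5 high-voltage-activated calcium channel genes, 1 passed, Cacna1a, the P/Q-type pore, with 0.45 (adjusted p = 0.00152, limma). Of 6 tested HCN partners, 2 passed: Pex5l, the gene of the HCN-binding protein TRIP8b (0.29, adjusted p = 0.0379, limma), and Mrvi1 (0.54, adjusted p = 0.00314, limma). The leak potassium channel Kcnk3 (0.35, adjusted p = 0.00594, limma) and the sodium channel Scn8a (0.35, adjusted p = 0.00521, limma) completed the 7. None of 7 calcium channel auxiliary subunits and none of 3 T-type partners passed. On the TPM as deposited 0 of 34 were higher and 23 lower, and with the relay marker scaling 0 were higher and 2 lower. Over all 13471 tested genes 9627 and 1565 passed under these scalings in either direction, with median log2 fold changes of -0.335 and -0.212. The counts of the 34 are therefore not read as results about these genes.

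Among the libraries labelled cKO, 4 of the 5 genes that passed with cocaine were auxiliary subunits of calcium channels, which carry the pore to the membrane and set its gating. Cacnb1 (0.33, adjusted p = 0.00662, limma) and Cacna2d2 (0.39, adjusted p = 0.0314, limma) were higher in the libraries labelled cKO cocaine. Cacnb4 (-0.47, adjusted p = 0.00378, limma) and Cacna2d1 (-0.46, adjusted p = 0.000448, limma) were lower. Cacna2d1 had 14.4 scaled TPM in both cKO cocaine libraries and 18.1 to 21.4 in cKO saline. Wwp1, a ubiquitin ligase listed with the T-type partners, was lower as well (-0.29, adjusted p = 0.0115, limma), so that 2 of 34 were higher and 3 lower, where 19.9% of all tested genes passed. On the TPM as deposited 0 were higher and 22 lower, and with the relay marker scaling 0 were higher and 4 lower. Over all 13471 tested genes 8231 and 1075 passed there in either direction, with median log2 fold changes of -0.346 and -0.226. The calls of Cacnb1 (-0.04 and 0.09) and Cacna2d2 (0.02 and 0.15) were lost under both, while Cacnb4, Cacna2d1 and Wwp1 passed as lower under both. A shift of all genes downward by itself removes higher calls and keeps lower ones. These scalings therefore cannot say which of the 5 calls is the firmer. Cacnb4 (-0.51, adjusted p = 0.0493, limma), Cacna2d1 (-0.38, adjusted p = 0.0391, limma) and Kcnn1 (-0.44, adjusted p = 0.0449, limma) also passed the interaction, 3 of 34 against 1.35% of all tested genes. Single libraries moved that share as given above, and the limit of the labels given there holds here too. Cacnb4 did not pass with median-of-ratios scaling (adjusted p = 0.0516, limma) or quantile normalisation (0.0562), nor Kcnn1 with TMM factors from genes with a mean of at least 5 TPM (0.0522). Under TPM as deposited and relay marker scaling 0 of 34 passed the interaction, where 17 and 24 of all 13471 tested genes did. Between all cocaine and all saline libraries 5 were higher (Cacna1a, Cacnb1, Mrvi1, Kcnn1 and Kcnk3) and 3 lower (Cacna2d1, Wwp1 and Scn2a), where 31.2% of all tested genes passed. The counts became 0 higher and 27 lower on the TPM as deposited, and 0 higher and 10 lower with the relay marker scaling. Over all 13471 tested genes 10898 and 4791 passed under these scalings in either direction, with median log2 fold changes of -0.341 and -0.209. None of the 34 passed between genotypes after saline or after cocaine (limma), with 15 and 5 at an unadjusted p under 0.05. Of all 13471 tested genes 2255 and 1635 had such a p.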

How the data were processed

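Transcript abundances were deposited by the authors as TPM per gene and library, made from stranded, ribodepleted total RNA with STAR 2.5.3a and Salmon on GRCm38.p4 (mm10), per the labels and the study's methods. In 2 of the 14 deposited files the same TPM values are written with a decimal comma, recorded here as other values and read as TPM. TPM keeps no read depth, so no counting interval was given. Of 15 samples, cKO cocaine replicate 3 was not analysed here. The listed TPM summed to 312659 to 377401 per library. Libraries were scaled by trimmed means of log ratios (30% of ratios and 5% of means trimmed), filtered at 1 TPM in at least 3 libraries, and taken as log2(scaled TPM + 0.5), a scale that understates changes of low genes. A model of the 4 titled groups was fitted with limma 3.58.1 (R 4.3.3) with an intensity trend, and p-values were adjusted by Benjamini-Hochberg over all 13471 tested genes. A gene passed at an adjusted p under 0.05. Treatment alone was fitted for all cocaine against all saline. For the members, exact two-sided permutation tests were added (scipy 1.17.1). The labels do not name the animals, so p-values measure the spread between libraries. On simulated data for control cocaine against control saline, the fit recovered 75.8% of 198 genes given a log2 change of 0.5 among 13323 genes, with 9 false calls. The simulated noise was independent between genes and libraries, and the changes were few and balanced in direction. These figures therefore do not cover shifts shared by many genes, or the group with 2 libraries. The named genes were the 6 members, Maged1, up to 4 genes that passed from each fixed list, and the 3 genes most like each member, over all libraries and after subtracting group means. The members and lists were chosen with earlier results of these data known. Alternatives covered scaling, pseudocount, filter, trend, genotype tag, replicate block and each library left out, and the relay marker scaling was chosen after seeing the data. One gene of the HCN partner list is not reported here.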

Additional observations from a re-analysis of the deposited data

Results flagged for a closer look

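Of 18 groups of 4 libraries tested for a single library far from the rest (6 genes in 3 groups), 2 had one, and chance gives about 1 in 20 groups. Hcn2 in the libraries labelled control cocaine was low in replicate 1, at 62.74 scaled TPM against 80.4 to 83.7 in the other 3, a gap of 0.841 of the group's range. Hcn4 in cKO saline was low in replicate 4, at 10.18 scaled TPM against 11.7 to 11.9 in the other 3, a gap of 0.888 of the range.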

How the results depend on the processing

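Between control cocaine and control saline, 2 members passed. The count was 1 with the genotype tag in place of the title (Hcn4), 1 with the 10 libraries whose title and tag agree (Hcn4), 0 with scaling to relay neuron markers and 0 with the fold minimum, and the TPM as deposited gave 2 other genes, Cacna1i at -0.341 (a reversed direction) and Hcn3. Between cKO cocaine and cKO saline 0 passed, against 3 on the TPM as deposited (with Cacna1g reversed to -0.365), 1 with quantile normalisation, 1 with a mean of at least 5 TPM, 1 in a fit of the compared groups, and 0 to 1 with single libraries left out (Hcn3 without control cocaine replicate 4 or control saline replicate 1). The interaction count was 0, and 0 to 1 with single libraries left out. Between all cocaine and all saline 1 passed, against 4 on the TPM as deposited, 0 with relay marker scaling, 0 with the fold minimum and 1 to 2 with single libraries left out. On the TPM as deposited Cacna1g (-0.219), Cacna1i (-0.357), Hcn3 (-0.228) and Hcn4 (-0.039) were reversed there, where the median of all tested genes was -0.341. The cause of these changes was not tested. Of all 13471 genes, 9627 (control), 8231 (cKO) and 10898 (all libraries) passed between cocaine and saline on the TPM as deposited. With the relay marker scaling 1565, 1075 and 4791 passed. The member counts under these scalings are therefore not read as results about the 6 genes. Of 978 values under alternatives for 36 fold changes, 954 kept their direction or stayed on the same side of the threshold, 11 newly passed, 7 no longer passed and 6 reversed. The 6 count only reversals with a value past the threshold. Another 64, within the 954, changed sign with neither value past it. Same-numbered libraries did not deviate together (mean r = -0.0139 over 18 pairs), so the numbers were not taken to pair them. With the replicate block the count of members stayed at 2 between control cocaine and control saline, and 2801 of all genes passed against 3275. The study gives an approximate read depth for its samples, and the depth of each library was not known.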
